A study of Homo sapiens with 30 samples.

Results

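The 40 genes described here encode proteins that build ribosomes in the nucleolus, and were followed in malignant T-cell lines exposed to CHOEP chemotherapy. The list was fixed by gene name, with earlier results of these data known. Its counts beside those of all genes are therefore not independent evidence. It holds 7 genes of small nucleolar ribonucleoprotein particles (snoRNPs) and 4 subunits of RNA polymerase I (Pol I). The rest are 10 genes of small subunit processing, 12 of large subunit processing and 7 other nucleolar genes. A gene was tested where a probe carrying its symbol, old or current, had a detection p below 0.01 on 3 or more of the 30 arrays, which left 37 of the 40 genes, with 58 probes, among 12482 genes tested. WDR43 and GNL3 had no probe that could be named here, and the single named probe of NPM1 (nucleophosmin) was detected on 1 array, so these 3 genes were not tested.

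The series profiled HD-MAR-2 and JURKAT cells (T-cell leukaemia), SUP-T1 cells (T-lymphoblastic lymphoma), KARPAS-299 cells (anaplastic large cell lymphoma) and HH cells (cutaneous T-cell lymphoma) on Illumina HumanHT-12 v4 arrays. In each line 3 cultures received CHOEP for 24 h and 3 were left untreated, giving 10 groups and 30 arrays. CHOEP is the mixture of cyclophosphamide, doxorubicin, vincristine, prednisone and etoposide, and each line was treated at its own half-maximal inhibitory dose. Each line is an established culture of tumour cells, and cyclophosphamide and prednisone are prodrugs activated mainly in the liver, which limits these cultures as a model of treated tumours. No sample received a single drug, so effects of the 5 agents cannot be told apart. Of 8 T-lineage markers, all 8 were detected on every array of HD-MAR-2, SUP-T1 and JURKAT, 5 on every array of HH and only 2 (CD3D and CD5) on every array of KARPAS-299, where 4 were detected on none. Of 8 markers of other blood cells, 1 to 3 were detected on all 6 arrays of a line and 2 had no probe.

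Ribosome production starts with Pol I, which transcribes the ribosomal RNA precursor in the nucleolus. Guided by small nucleolar RNAs, box C/D snoRNPs methylate and box H/ACA snoRNPs pseudouridylate the precursor, while processing factors fold it, cut it and assemble it into the small and the large subunit. Growing cells spend much of their transcription on this pathway, and the transcription factor MYC, often high in T-cell tumours, drives many of its genes through the E-box sequence CACGTG. Doxorubicin and etoposide act on topoisomerase II, and intercalating anthracyclines are known to disturb Pol I transcription and nucleolar structure.

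To show the sequence context of genes named below, the promoter window of each gene (250 bases before to 50 bases after the transcription start, RefSeq, GRCh38.p14) was searched for CACGTG, which reads the same on both strands. The motif was present in 14 of the 33 listed genes that had a window (42.4%), against 8.77% of 27305 genes with a window. It was found in 2 of 5 snoRNP genes, 0 of 3 Pol I genes, 5 of 9 small subunit genes, 3 of 9 large subunit genes and 4 of 7 other nucleolar genes. The 27305 genes were not limited to the 12482 tested on the arrays. Many genes of this pathway are known MYC targets, so the shares are a description only. A match is a description of the letters, not of a bound site. The following stretches, written 5′ to 3′ on the gene's strand with the motif in capitals, belong first to 4 genes that fell in 3 lines (BYSL, MRTO4, LYAR and PUS7), then to RRP9, and last to 3 genes that passed the test in no single line (UTP20, NOP2 and PES1).
BYSL: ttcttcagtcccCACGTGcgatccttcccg
MRTO4: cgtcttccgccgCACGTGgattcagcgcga
LYAR: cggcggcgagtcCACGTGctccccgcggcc
PUS7: gtcgctgcgccgCACGTGtgcgagcccggc
RRP9: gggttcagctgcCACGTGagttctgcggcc
UTP20: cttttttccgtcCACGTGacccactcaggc
NOP2: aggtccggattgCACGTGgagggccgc
PES1: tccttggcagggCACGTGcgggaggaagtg
The stretches lie at chr6:41921515-41921544 on the plus strand for BYSL, chr1:19251807-19251836 on the plus strand for MRTO4, chr4:4290068-4290097 on the minus strand for LYAR and chr7:105522226-105522255 on the minus strand for PUS7. Those of RRP9, UTP20, NOP2 and PES1 lie at chr3:51941892-51941921 on the minus strand, chr12:101280083-101280112 on the plus strand, chr12:6568242-6568268 on the minus strand and chr22:30591880-30591909 on the minus strand. Counting the first transcribed base as 1, the motif began at base 29 in BYSL and PUS7, 15 in MRTO4, 36 in NOP2 and 14 in PES1, and at base -64 in LYAR, -5 in RRP9 and -10 in UTP20. LYAR has a further annotated start, whose window held no CACGTG. Windows of DKC1, UTP15, TSR1, NOP16 and NCL, which also fell in 3 lines, held none, and neither did those of WDR74 and NOP53, which rose. The motif thus stood in genes that passed the test in 3 lines and in genes that passed in none.

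After CHOEP, many ribosome biogenesis transcripts were lower in SUP-T1, HH and HD-MAR-2 cells and were close to their untreated level in KARPAS-299 and JURKAT cells. Values are log2 normalised probe intensities, and a difference is CHOEP minus untreated, tested with limma on all 30 arrays. Benjamini-Hochberg adjustment ran over the 22652 probes that passed the detection filter, before 1 probe was taken for each gene. "Rose" and "fell" are used for an adjusted p under 0.05. In HD-MAR-2 cells 22 of 37 genes fell and 2 rose (all genes: 15.8% fell and 14.9% rose). In SUP-T1 cells 19 fell and 1 rose (all genes: 13.9% and 12.3%), and in HH cells 18 fell and 2 rose (all genes: 9.64% and 9.89%). In KARPAS-299 cells none fell and 1 rose (all genes: 4.02% and 2.8%). In JURKAT cells none passed (all genes: 0.024% and 0.12%). At an unadjusted p under 0.05 limma found 0 lower and 1 higher there, beside 349 lower and 437 higher of all 12482 genes. The 1 gene was POLR1B, which had 1 untreated JURKAT array standing apart at 6.45. On the average of the 5 lines 27 genes fell and 2 rose (all genes: 20.1% and 17.8%). Scaling the arrays to a common median in place of quantile normalisation gave 29 genes that fell in SUP-T1 and 5 in HH, and no gene that rose in any line or on average. The shares of all genes that passed under this scaling were not counted, and those above do not apply to it. It moved the median log2 difference of all genes to -0.18 in SUP-T1 and -0.005 in HH.

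The median log2 difference over the 37 genes was -0.42 in SUP-T1, -0.38 in HH and -0.36 in HD-MAR-2, while over all genes the median was -0.01 in each of these lines. It was 0.09 in KARPAS-299 and -0.02 in JURKAT, where the medians over all genes were 0.01 and -0.01. Differences were below zero for 34, 31 and 30 of the 37 genes in SUP-T1, HH and HD-MAR-2, and for 8 and 24 in KARPAS-299 and JURKAT. The changes were modest in size: only LYAR in HD-MAR-2 fell by at least 2-fold, a size and direction reached there by 1.8% of all genes. Between the 5th and 95th percentiles of all genes the log2 differences ran between -0.71 and 0.71 in HD-MAR-2, where 4 of the 37 genes lay below that range and 1 above. In SUP-T1 the range was -0.64 to 0.65 and in HH -0.56 to 0.61, with 7 of the 37 genes below it in each line and none above. The standard error of a single gene's difference had a median of 0.126, and 3 arrays per group set this precision.

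**Figure D1:**
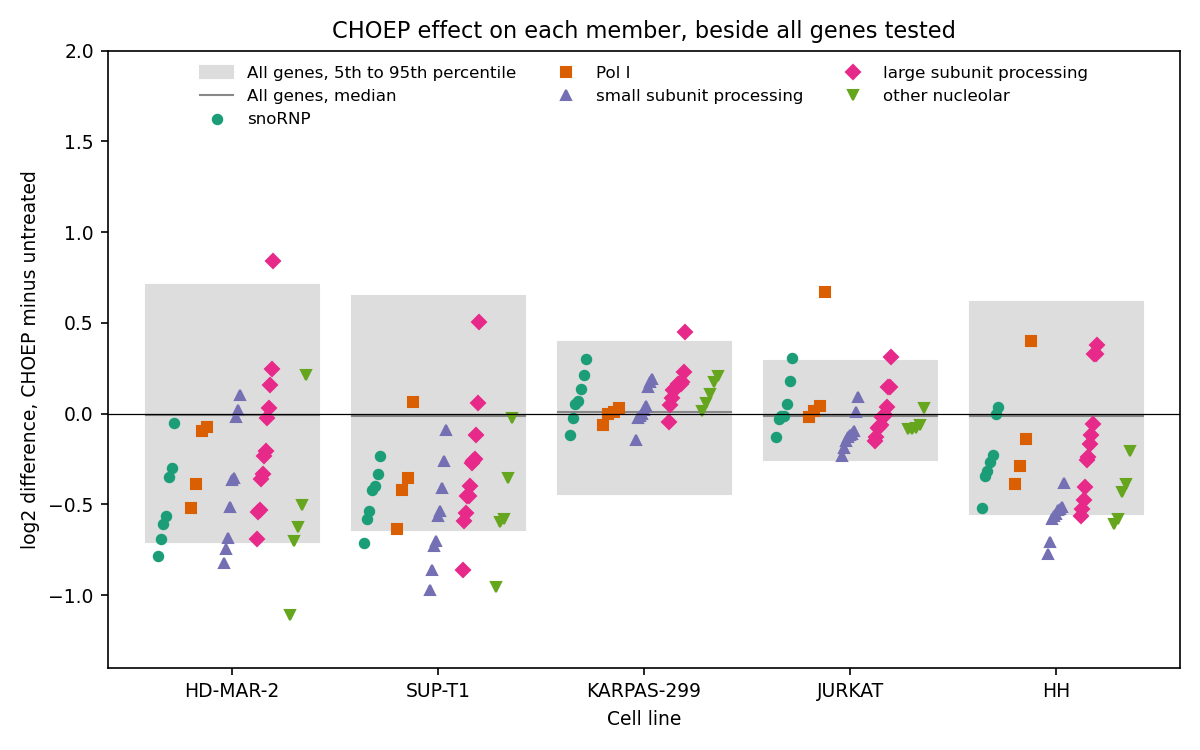
Log2 difference (CHOEP minus untreated) of the 37 genes and of all 12482 genes in each line. The 37 genes lie mostly below zero in SUP-T1, HH and HD-MAR-2, with medians of -0.42, -0.38 and -0.36, and around zero in KARPAS-299 and JURKAT.

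The lower levels were seen in each treated culture of these lines. Setting every array against the mean of its line's untreated arrays, gene by gene, gave medians over the 37 genes of -0.39, -0.38 and -0.30 on the 3 CHOEP arrays of HD-MAR-2, against -0.03, 0.01 and 0.01 on the untreated arrays. In SUP-T1 these medians were -0.37, -0.47 and -0.55 with CHOEP and -0.04, 0.04 and -0.03 without, and in HH -0.34, -0.37 and -0.38 with CHOEP and -0.01, 0.04 and -0.04 without. The CHOEP arrays thus lay below the untreated arrays in these 3 lines with no overlap. In KARPAS-299 the CHOEP arrays had medians of 0.06, 0.11 and 0.10 and the untreated arrays -0.07, 0.04 and 0.01, and in JURKAT -0.01, -0.02 and -0.09 with CHOEP stood beside 0.03, 0.04 and -0.02 without. Gene by gene, all 3 CHOEP values lay below all 3 untreated values for 24 of 37 genes in HD-MAR-2 (all genes: 23.3%), 20 in SUP-T1 (all genes: 16.5%) and 22 in HH (all genes: 22.2%). The same held for 0 genes in KARPAS-299 (all genes: 12.3%) and 4 in JURKAT (all genes: 8.41%), namely UTP20, NOP2, RRP1B and PUS7.

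**Figure D2:**
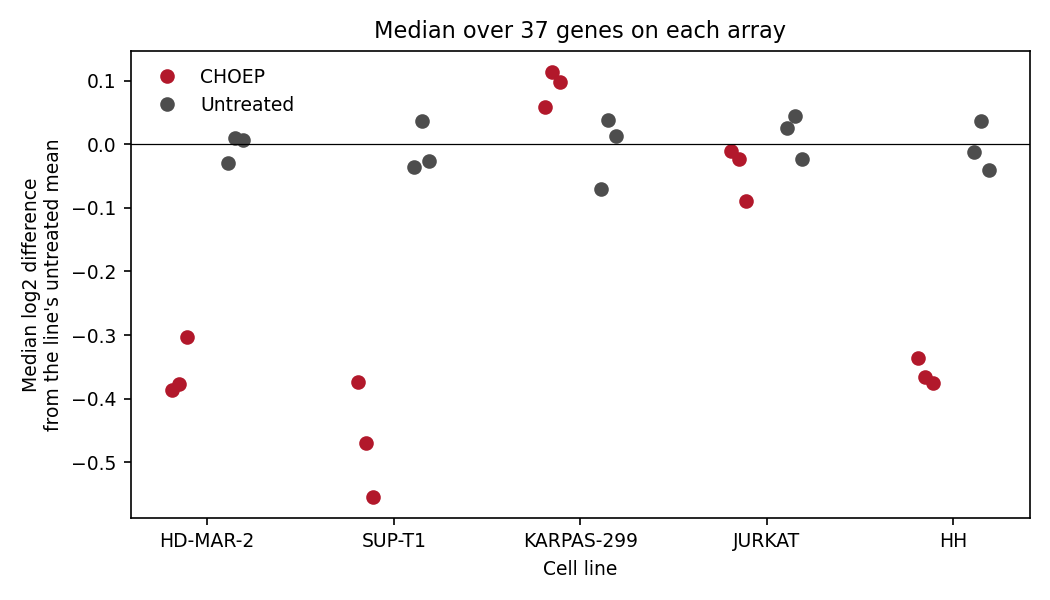
Median over the 37 genes of the log2 difference of each array from the mean of its line's untreated arrays, with CHOEP left of untreated in each line. The CHOEP arrays of HD-MAR-2, SUP-T1 and HH lie between -0.55 and -0.30, below all untreated arrays of their line.

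Most proliferation markers and MYC fell after CHOEP in HD-MAR-2 and SUP-T1. Of 10 proliferation markers, 8 fell in HD-MAR-2 (median log2 difference -0.79, all genes: 15.8% fell) and 9 in SUP-T1 (median -0.68, all genes: 13.9%). In HH 1 fell (median -0.22, all genes: 9.64%). None fell in KARPAS-299 or JURKAT (medians 0.06 and -0.04, all genes: 4.02% and 0.024%). MYC was 13.12, 13.03 and 13.25 in CHOEP-treated HD-MAR-2 cells, against 13.43, 13.67 and 13.72 in untreated HD-MAR-2 cells, a log2 difference of -0.47 ± 0.13 (SE, adjusted p = 0.00757). In SUP-T1 cells the MYC difference was -0.45 ± 0.13 (SE, adjusted p = 0.0131), and leaving out CHOEP replicate 1, CHOEP replicate 3 or untreated replicate 3 of that line ended this call (-0.41, -0.39 and -0.34 with adjusted p of 0.0528, 0.0652 and 0.0959). MYC did not pass in HH (-0.10, adjusted p = 0.704), nor in KARPAS-299 (0.16, adjusted p = 0.636) or JURKAT (-0.05, adjusted p = 0.999). The part of MYC and of proliferation in the differences was not tested. In bulk RNA fewer cells of a kind and less RNA per cell cannot be told apart. Treatment also went with fixed positions on the array slides, and each line with 1 slide, so position and treatment cannot be told apart, nor slide and line.

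**Figure D3:**
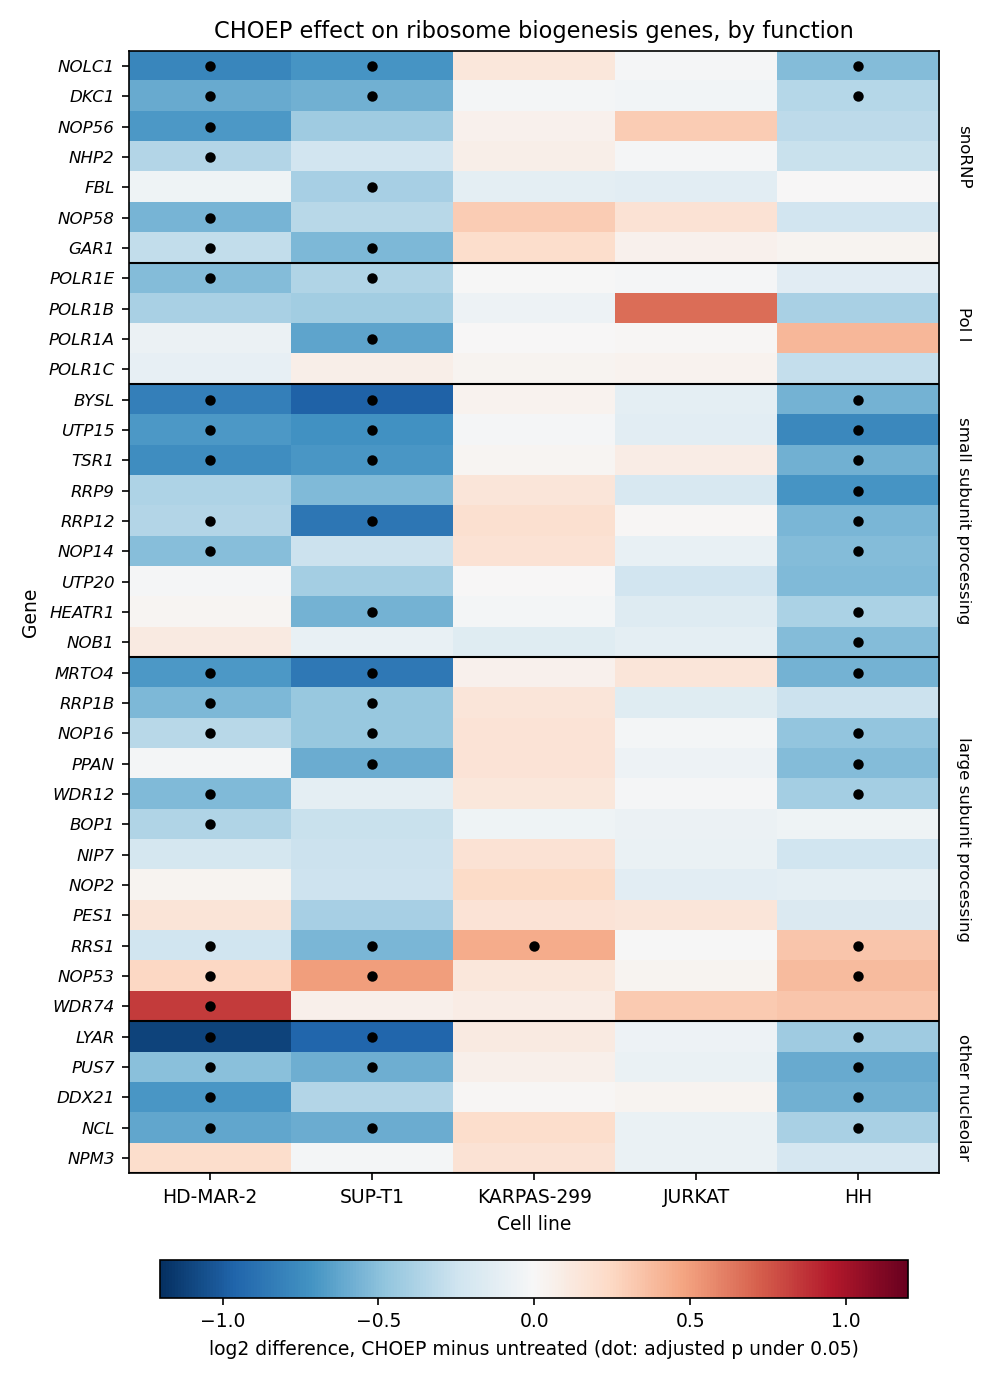
Log2 difference (CHOEP minus untreated) of each of the 37 genes, in rows by function, in the 5 lines in columns; marks show an adjusted p under 0.05. Falls are marked for 22, 19 and 18 genes in the HD-MAR-2, SUP-T1 and HH columns, and WDR74, NOP53 and RRS1 carry all calls above zero.

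Among snoRNP genes, 6 of 7 fell in HD-MAR-2 (all genes: 15.8%), 4 in SUP-T1 (13.9%), 2 in HH (9.64%) and none in KARPAS-299 or JURKAT (4.02% and 0.024%). Their medians on the log2 scale were -0.56, -0.42, -0.27, 0.07 and -0.01. NOLC1, a chaperone that escorts snoRNPs between the Cajal body and the nucleolus, changed most of these genes on average. Its log2 intensities were 9.52, 9.46 and 9.62 in CHOEP-treated HD-MAR-2 cells, against 10.24, 10.37 and 10.34 in untreated HD-MAR-2 cells. They were 10.45, 10.52 and 10.37 in CHOEP-treated SUP-T1 cells, against 11.27, 11.00 and 11.22 in untreated SUP-T1 cells, and 8.53, 8.53 and 8.48 in CHOEP-treated HH cells, against 9.23, 8.89 and 8.98 in untreated HH cells. In none of these 3 lines did the groups overlap. NOLC1 fell in all 3, in the order given, with log2 differences of -0.79, -0.71 and -0.52 (adjusted p = 1.55e-06, 1.01e-05 and 0.000571), while the log2 difference was 0.14 in KARPAS-299 and -0.01 in JURKAT. The HH call ended under median scaling (-0.50, adjusted p = 0.0595).

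DKC1 encodes dyskerin, the pseudouridine synthase of H/ACA snoRNPs that also holds telomerase RNA. It measured 12.75, 12.87 and 12.85 in CHOEP-treated HD-MAR-2 cells, against 13.41, 13.42 and 13.45 in untreated HD-MAR-2 cells. In SUP-T1 it measured 13.12, 13.08 and 13.00 in CHOEP-treated SUP-T1 cells, against 13.70, 13.66 and 13.58 in untreated SUP-T1 cells. CHOEP-treated cultures were lower without overlap in both lines, with log2 differences of -0.61 ± 0.08 (SE, adjusted p = 4.39e-06) and -0.58 ± 0.08 (SE, adjusted p = 1.26e-05). In HH cells DKC1 fell with -0.34 ± 0.08 (SE, adjusted p = 0.00467), a call that ended under median scaling (-0.39, adjusted p = 0.103), and the KARPAS-299 and JURKAT differences were -0.02 and -0.03. Of its partners in the H/ACA particle, NHP2 fell in HD-MAR-2 (-0.35 ± 0.10, adjusted p = 0.0118), with -0.23 in SUP-T1 and -0.27 in HH. Of the other 3 NHP2 probes, 2 passed in HH (-0.39 and -0.30 with adjusted p of 0.0216 and 0.048). GAR1 fell in HD-MAR-2 (-0.30, adjusted p = 0.0149) and SUP-T1 (-0.54, adjusted p = 8.1e-05), with 0.04 in HH.

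The box C/D proteins were called in 1 line each. NOP56 and NOP58, paired scaffold proteins of that particle, fell in HD-MAR-2 (-0.69 and -0.56 with adjusted p of 0.00158 and 0.0254), and in SUP-T1 were at -0.42 (adjusted p = 0.0516) and -0.33 (adjusted p = 0.223). NOP56 has 3 probes, and its other 2 gave -1.07 and -0.65 in SUP-T1, both past the threshold, and -0.51 (passed) and -0.27 (adjusted p = 0.0778) in HD-MAR-2. FBL (fibrillarin), the methyltransferase of the particle, fell in SUP-T1 alone (-0.40, adjusted p = 0.0086), with -0.05 in HD-MAR-2 and 0.00 in HH. On the probes that stand for the genes, both scaffold proteins thus fell in HD-MAR-2, where FBL did not pass.

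Of the 4 Pol I subunits, 2 fell in SUP-T1 (all genes: 13.9%), 1 in HD-MAR-2 (all genes: 15.8%) and none in the other 3 lines. POLR1E, a subunit of the Pol I-specific initiation and elongation module, had log2 intensities of 10.69, 10.59 and 10.73 in CHOEP-treated HD-MAR-2 cells, against 11.20, 11.28 and 11.09 in untreated HD-MAR-2 cells. In SUP-T1 they were 10.78, 10.94 and 10.66 in CHOEP-treated SUP-T1 cells, against 11.12, 11.40 and 10.94 in untreated SUP-T1 cells. The CHOEP values lay below the untreated values in HD-MAR-2 and overlapped them in SUP-T1, with log2 differences of -0.52 ± 0.11 (SE, adjusted p = 0.000767) and -0.36 ± 0.11 (SE, adjusted p = 0.0189). The SUP-T1 call was lost without CHOEP replicate 1, CHOEP replicate 3 or untreated replicate 2 (-0.35, -0.29 and -0.23 with adjusted p of 0.0506, 0.0997 and 0.149). It was also lost when both probes of the gene were averaged (-0.25, adjusted p = 0.0674).

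POLR1A, the largest catalytic subunit, was detected on 15 of 30 arrays and on none of KARPAS-299, so its values lie near background. It passed only in SUP-T1 (-0.64, adjusted p = 0.0273), where it was detected on 2 CHOEP and 3 untreated arrays. POLR1B, the second-largest subunit, passed in no line on the probe that stands for it, yet its effect differed between lines (adjusted p = 0.0334, F test of equal CHOEP effects). It was 8.03, 7.86 and 8.05 in CHOEP-treated JURKAT cells, against 6.45, 7.65 and 7.82 in untreated JURKAT cells, with all CHOEP values above, and 1 untreated JURKAT array stood apart at 6.45. Its log2 difference was 0.67 (adjusted p = 0.452) in JURKAT and -0.42 (adjusted p = 0.196) in SUP-T1. Without that JURKAT array the SUP-T1 and the average difference passed (-0.42 and -0.20 with adjusted p of 0.0473 and 0.0284). The other POLR1B probe fell in HD-MAR-2 (-0.43, adjusted p = 0.038) and SUP-T1 (-0.54, adjusted p = 0.0121), and the mean of both probes fell in SUP-T1 (-0.48, adjusted p = 0.0409). POLR1C, shared between Pol I and RNA polymerase III, measured 10.81, 11.06 and 10.87 in CHOEP-treated HH cells, against 11.22, 11.15 and 11.22 in untreated HH cells, and its log2 difference of -0.29 (adjusted p = 0.127) was the farthest from zero among the lines. Its other probe fell in HH (-0.53, adjusted p = 0.00789), as did the mean of both (-0.41, adjusted p = 0.00572).

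Of the 9 small subunit processing genes tested, 8 fell in HH (all genes: 9.64%) and 5 each in SUP-T1 and HD-MAR-2 (all genes: 13.9% and 15.8%). None fell in KARPAS-299 or JURKAT. Their median log2 differences were -0.55 in HH, -0.56 in SUP-T1 and -0.37 in HD-MAR-2, beside 0.02 in KARPAS-299 and -0.12 in JURKAT, and all 9 fell on average over the lines. BYSL (bystin), which matures the pre-small subunit late in its assembly, measured 10.23, 10.27 and 10.23 in CHOEP-treated HD-MAR-2 cells, against 11.23, 11.05 and 10.93 in untreated HD-MAR-2 cells. It measured 11.55, 11.39 and 11.56 in CHOEP-treated SUP-T1 cells, against 12.56, 12.46 and 12.39 in untreated SUP-T1 cells, and 8.79, 8.70 and 8.54 in CHOEP-treated HH cells, against 9.21, 9.28 and 9.23 in untreated HH cells. The groups did not overlap in these lines, and BYSL fell with log2 differences of -0.82, -0.97 and -0.56 (adjusted p = 9.28e-06, 1.3e-06 and 0.00141). In KARPAS-299 and JURKAT the BYSL differences were 0.04 and -0.12. Under median scaling BYSL did not pass in HH (-0.55, adjusted p = 0.0571). BYSL also had the widest spread of untreated levels of the 37 genes, with means of 12.47 in SUP-T1 and 9.24 in HH.

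UTP15, a component of the processome that first binds the precursor, had log2 intensities of 8.14, 8.23 and 8.26 in CHOEP-treated HH cells, against 8.96, 9.08 and 8.89 in untreated HH cells. They were 7.73, 7.24 and 7.58 in CHOEP-treated HD-MAR-2 cells, against 8.24, 8.13 and 8.23 in untreated HD-MAR-2 cells. The groups did not overlap in either line. UTP15 fell with a log2 difference of -0.77 ± 0.14 (SE, adjusted p = 0.000282) in HH, the lowest of the 37 genes there, and with -0.69 ± 0.14 (SE, adjusted p = 0.000645) in HD-MAR-2 and -0.73 ± 0.14 (SE, adjusted p = 0.000408) in SUP-T1. Other processome proteins followed by line: HEATR1 fell in SUP-T1 and HH (-0.56 and -0.38) with 0.02 in HD-MAR-2, and NOP14 fell in HD-MAR-2 and HH (-0.51 and -0.52) with -0.26 in SUP-T1. The other NOP14 probe fell in SUP-T1 (-0.52, adjusted p = 0.00242) and did not pass in HH (-0.16, adjusted p = 0.446). RRP9, a protein of the U3 snoRNP that guides early cuts, measured 6.46, 6.77 and 7.14 in CHOEP-treated HH cells, against 7.11, 7.69 and 7.69 in untreated HH cells. The groups overlapped, and the log2 difference of -0.71 ± 0.22 (SE, adjusted p = 0.0243) passed. The RRP9 call in HH was lost without CHOEP replicate 1, CHOEP replicate 2, untreated replicate 2 or untreated replicate 3 (-0.54, -0.70, -0.61 and -0.61 with adjusted p of 0.139, 0.0666, 0.108 and 0.101). Under median scaling RRP9 did not pass in HH (-0.61, adjusted p = 0.0728) but passed in HD-MAR-2 (-0.58) and SUP-T1 (-0.65).

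UTP20, a large scaffold protein, was detected on 11 of 30 arrays and passed in no single line. In HH it was detected on 1 CHOEP and 2 untreated arrays, and in HD-MAR-2 and SUP-T1 on none, so its values there lie near background. It was 5.81, 6.48 and 5.42 in CHOEP-treated HH cells, against 6.22, 6.44 and 6.65 in untreated HH cells, a log2 difference of -0.53 (adjusted p = 0.0648) that passed without CHOEP replicate 2 (-0.82, adjusted p = 0.00304). Its average over lines passed (-0.24, adjusted p = 0.0382), but not in 14 of the 30 fits that left out 1 array (adjusted p up to 0.0743) and not with the mean of its probes (-0.14, adjusted p = 0.0838), which passed in HH (-0.53, adjusted p = 0.00986). TSR1, which acts on the late pre-small subunit, fell in SUP-T1, HH and HD-MAR-2 (-0.70, -0.58 and -0.75), and RRP12, which takes part in export of the subunits, fell in the same lines (-0.86, -0.55 and -0.35). NOB1, the nuclease that makes the final cut of the small subunit RNA, fell in HH alone (-0.52, adjusted p = 0.00447) and was at 0.10 and -0.09 in HD-MAR-2 and SUP-T1.

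Large subunit processing genes had calls in both directions, as did all genes. Of 12 genes, 6 fell and 2 rose in HD-MAR-2 (all genes: 15.8% and 14.9%), and 5 fell and 1 rose in SUP-T1 (13.9% and 12.3%). In HH 4 fell and 2 rose (all genes: 9.64% and 9.89%), and in KARPAS-299 1 rose (all genes: 2.8%). MRTO4, which holds the place of the stalk protein P0 on the immature subunit, measured 9.66, 9.88 and 9.47 in CHOEP-treated HD-MAR-2 cells, against 10.30, 10.35 and 10.42 in untreated HD-MAR-2 cells. In SUP-T1 it measured 10.15, 10.49 and 10.02 in CHOEP-treated SUP-T1 cells, against 10.82, 11.26 and 11.15 in untreated SUP-T1 cells. CHOEP values were below untreated values throughout, and MRTO4 fell with log2 differences of -0.69 ± 0.16 (SE, adjusted p = 0.00152) in HD-MAR-2, -0.86 ± 0.16 (SE, adjusted p = 0.000199) in SUP-T1 and -0.57 ± 0.16 (SE, adjusted p = 0.0122) in HH. Median scaling ended the HH call (-0.56, adjusted p = 0.0682). NOP16 fell in the same lines by smaller amounts (-0.33, -0.46 and -0.48).

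Genes of the PES1-BOP1-WDR12 complex, which is needed to process the large subunit precursor, were not called in the same lines. Differences between these genes were not tested. WDR12 fell in HD-MAR-2 (-0.53, adjusted p = 0.000452) and HH (-0.40, adjusted p = 0.0081), and BOP1 fell in HD-MAR-2 (-0.36, adjusted p = 0.035). PES1 passed in no line and measured 9.68, 10.32 and 9.52 in CHOEP-treated SUP-T1 cells, against 9.89, 10.43 and 10.39 in untreated SUP-T1 cells. Its SUP-T1 difference of -0.40 (adjusted p = 0.0746) passed without CHOEP replicate 2 (-0.64, adjusted p = 0.00213) or without untreated replicate 1 (-0.57, adjusted p = 0.0144). In HD-MAR-2, where its partners fell, PES1 was at 0.16 (adjusted p = 0.52).

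NOP2, an rRNA methyltransferase and proliferation antigen, also passed in no line: 12.10, 12.26 and 11.96 in CHOEP-treated SUP-T1 cells, against 12.08, 12.55 and 12.44 in untreated SUP-T1 cells gave a log2 difference of -0.25 (adjusted p = 0.141), which passed without untreated replicate 1 (-0.38, adjusted p = 0.0232). The 4 probes of NOP2 disagreed in sign in HD-MAR-2, between -0.29 and 0.31. In SUP-T1 all 4 were negative, a further probe passed (-0.53, adjusted p = 0.0273) and so did the mean of the probes (-0.38, adjusted p = 0.00347). NIP7 measured 11.18, 11.41 and 11.37 in CHOEP-treated SUP-T1 cells, against 11.64, 11.46 and 11.64 in untreated SUP-T1 cells, a log2 difference of -0.26 (adjusted p = 0.0739) that passed without untreated replicate 2 (-0.32, adjusted p = 0.048). The NIP7 average over lines fell (-0.12, adjusted p = 0.0437) but failed in 18 of the 30 fits that left out 1 array (adjusted p up to 0.0868). PPAN fell in SUP-T1 and HH (-0.59 and -0.52), and RRP1B in HD-MAR-2 and SUP-T1 (-0.54 and -0.45).

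WDR74, NOP53 and RRS1 accounted for every call above zero. WDR74, which takes part in releasing early large subunit factors, measured 10.15, 10.21 and 10.06 in CHOEP-treated HD-MAR-2 cells, against 9.29, 9.40 and 9.21 in untreated HD-MAR-2 cells. It rose there with a log2 difference of 0.84 ± 0.18 (SE, adjusted p = 0.000945), with all CHOEP values above the untreated ones, and the other lines ranged between 0.06 in SUP-T1 and 0.33 in HH without passing. The WDR74 effect was not shown to differ between lines over all 5 (F test, adjusted p = 0.0943). NOP53, which brings the RNA exosome to the precursor, is among the up-regulated genes listed in the study of these samples (as GLTSCR2). Its direction is therefore not independent evidence. That listing required a rise of 2-fold or more in more than 1 line. NOP53 did not reach 2-fold in any line here, its largest rise being 1.42-fold in SUP-T1, for reasons not tested. It measured 14.73, 14.82 and 14.55 in CHOEP-treated SUP-T1 cells, against 14.21, 14.34 and 14.03 in untreated SUP-T1 cells, and 13.89, 13.88 and 14.07 in CHOEP-treated HH cells, against 13.69, 13.51 and 13.51 in untreated HH cells. The CHOEP arrays were above the untreated arrays in both lines, and NOP53 rose with log2 differences of 0.51 ± 0.09 (SE, adjusted p = 0.000245) in SUP-T1 and 0.38 ± 0.09 (SE, adjusted p = 0.00504) in HH. In HD-MAR-2 NOP53 was 14.61, 14.63 and 14.60 in CHOEP-treated HD-MAR-2 cells, against 14.40, 14.37 and 14.32 in untreated HD-MAR-2 cells, and this rise (0.25 ± 0.09, adjusted p = 0.0493) was lost in 23 of the 30 fits that left out 1 array (adjusted p up to 0.132).

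RRS1, which brings the ribosomal RNA of the large subunit's central protuberance into the particle, was the gene called in opposite directions. It measured 10.22, 10.26 and 10.08 in CHOEP-treated SUP-T1 cells, against 10.82, 10.63 and 10.74 in untreated SUP-T1 cells, and fell there with a log2 difference of -0.54 ± 0.08 (SE, adjusted p = 1.92e-05). It measured 11.16, 11.08 and 11.12 in CHOEP-treated KARPAS-299 cells, against 10.68, 10.59 and 10.74 in untreated KARPAS-299 cells, and 11.54, 11.64 and 11.62 in CHOEP-treated HH cells, against 11.21, 11.30 and 11.31 in untreated HH cells. RRS1 rose in these lines with log2 differences of 0.45 ± 0.08 (SE, adjusted p = 0.000552) and 0.33 ± 0.08 (SE, adjusted p = 0.0054), with no overlap, and its effect differed between lines (F test, adjusted p = 8.31e-07). In HD-MAR-2 it fell with -0.23 ± 0.08 (SE, adjusted p = 0.0333), a call that was lost without CHOEP replicate 1, CHOEP replicate 3, untreated replicate 1 or untreated replicate 2 (-0.21, -0.22, -0.24 and -0.21 with adjusted p of 0.105, 0.105, 0.0646 and 0.0991). Under median scaling the rises of WDR74, NOP53 and RRS1 kept their sign, but none passed.

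**Figure D4:**
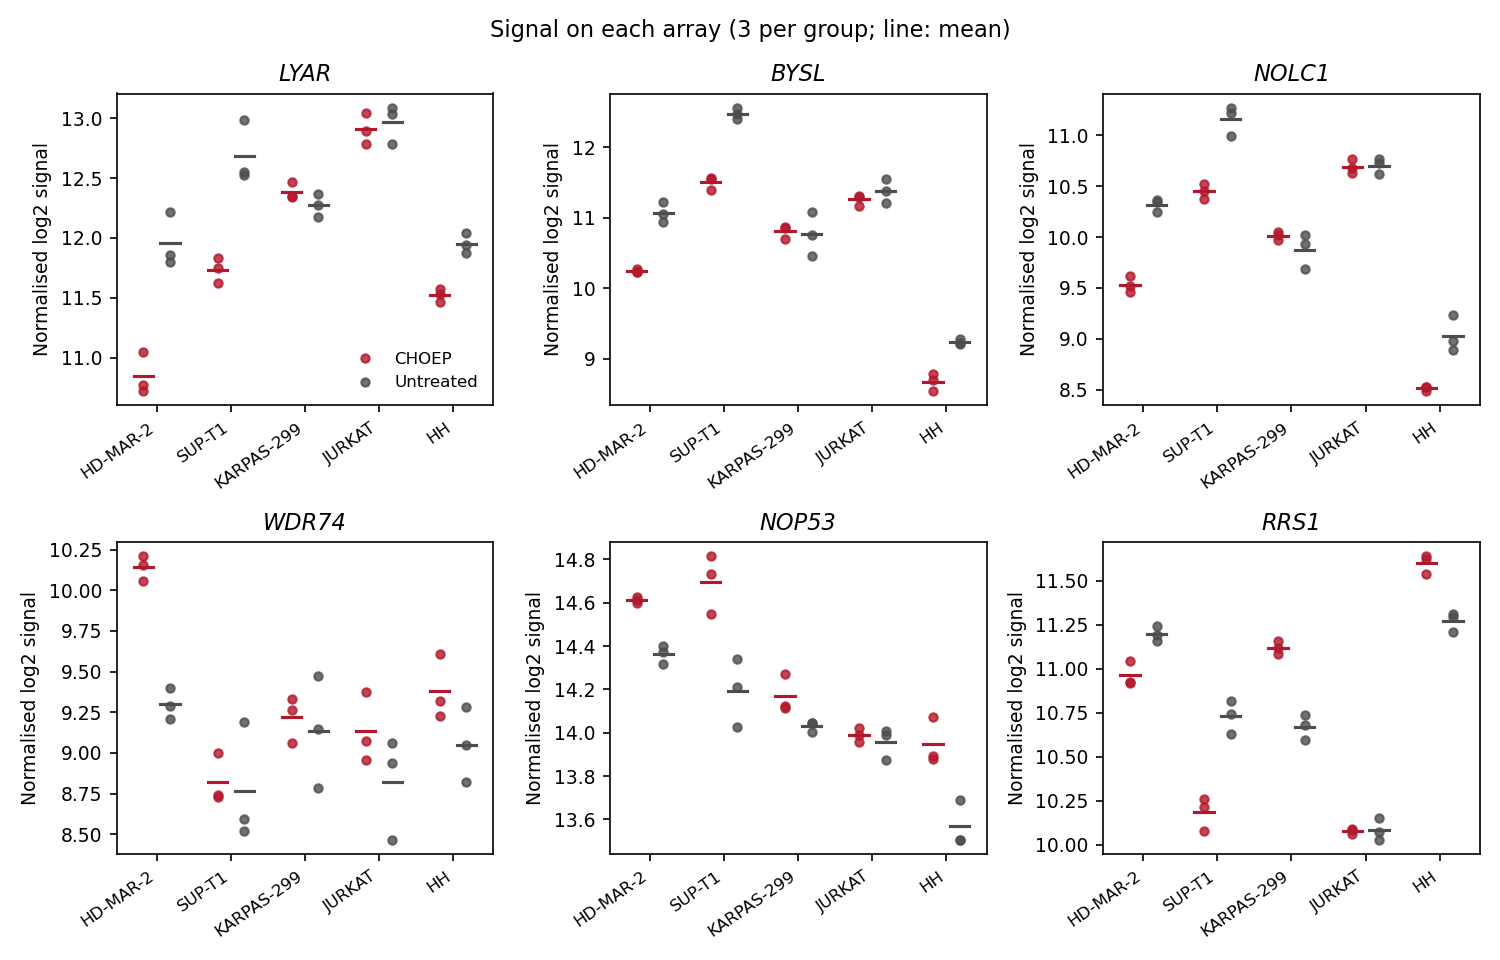
Log2 normalised intensity on every array for LYAR, BYSL, NOLC1, WDR74, NOP53 and RRS1, with CHOEP left of untreated in each line; points are cultures and bars their means. LYAR in HD-MAR-2 lies between 10.72 and 11.05 with CHOEP, below all untreated cultures of that line, and RRS1 is lower with CHOEP in SUP-T1 and higher in KARPAS-299.

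Among the other nucleolar genes, 4 of 5 tested fell in HH (all genes: 9.64%), 3 in SUP-T1 (13.9%) and 4 in HD-MAR-2 (15.8%). LYAR, a nucleolar zinc-finger protein of growing cells, had the lowest difference of all 37 genes. Its log2 intensities were 11.05, 10.72 and 10.77 in CHOEP-treated HD-MAR-2 cells, against 12.22, 11.86 and 11.79 in untreated HD-MAR-2 cells. They were 11.75, 11.62 and 11.83 in CHOEP-treated SUP-T1 cells, against 12.99, 12.55 and 12.53 in untreated SUP-T1 cells, and 11.46, 11.53 and 11.57 in CHOEP-treated HH cells, against 11.94, 12.04 and 11.87 in untreated HH cells. The groups overlapped in none of these lines. LYAR fell with log2 differences of -1.11 ± 0.13 (SE, adjusted p = 2.4e-07) in HD-MAR-2, -0.95 ± 0.13 (SE, adjusted p = 3.86e-06) in SUP-T1 and -0.43 ± 0.13 (SE, adjusted p = 0.0195) in HH, and was at 0.11 and -0.06 in KARPAS-299 and JURKAT. A further LYAR probe gave -1.25 in SUP-T1 and -1.03 in HD-MAR-2. Median scaling ended the HH call of LYAR (-0.48, adjusted p = 0.124). This call was also lost without CHOEP replicate 1 (-0.40, adjusted p = 0.0686) or untreated replicate 2 (-0.39, adjusted p = 0.0826).

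PUS7, a pseudouridine synthase that works without a guide RNA, measured 9.76, 9.75 and 9.65 in CHOEP-treated HH cells, against 10.38, 10.38 and 10.21 in untreated HH cells. CHOEP values lay below untreated values in every line but KARPAS-299, although the JURKAT difference of -0.08 did not pass. PUS7 fell with log2 differences of -0.61 ± 0.11 (SE, adjusted p = 0.000327) in HH, -0.58 ± 0.11 (SE, adjusted p = 0.000395) in SUP-T1 and -0.50 ± 0.11 (SE, adjusted p = 0.00137) in HD-MAR-2. NCL (nucleolin), among the most abundant nucleolar proteins, fell in the same lines (-0.38, -0.60 and -0.62), and DDX21, an RNA helicase of Pol I transcription and processing, fell in HH (-0.58, adjusted p = 0.00348) and HD-MAR-2 (-0.70, adjusted p = 0.000325) with -0.35 (adjusted p = 0.0613) in SUP-T1. NPM3, a nucleoplasmin family member, passed in no line. It was 11.35, 11.40 and 11.54 in CHOEP-treated HD-MAR-2 cells, against 11.13, 11.42 and 11.10 in untreated HD-MAR-2 cells, a log2 difference of 0.21 (adjusted p = 0.226) with overlapping groups.

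Counted over lines, 11 of the 37 genes fell in all of HD-MAR-2, SUP-T1 and HH (all genes: 1.84%): DKC1, NOLC1, UTP15, BYSL, TSR1, RRP12, NOP16, MRTO4, NCL, LYAR and PUS7. A further 9 fell in 2 lines, 8 in 1 line and 9 in none. Under median scaling 5 genes fell in HH, so no more than 5 could fall in all 3 lines. Members of every function except Pol I are among the 11. POLR1B, POLR1C, UTP20, NOP2, PES1, NIP7 and NPM3 passed in no line in either direction on the probe that stands for each gene. With the mean of all probes of a gene, POLR1B and NOP2 passed in SUP-T1, and POLR1C and UTP20 in HH. Under median scaling NOP2 (-0.58), PES1 (-0.70) and NIP7 (-0.57) passed in SUP-T1, and NIP7 also in HD-MAR-2 (-0.50).

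The effects of CHOEP were then compared between lines directly. An F test of equal effects in the 5 lines passed for 23 of 37 genes (all genes: 35.1%). HD-MAR-2 and KARPAS-299 differed for 22 genes (all genes: 23.1%), of which only WDR74 was higher in HD-MAR-2, and SUP-T1 and KARPAS-299 for 18 (all genes: 18%). KARPAS-299 and HH differed for 12 (all genes: 12.3%), each lower in HH. JURKAT differed from HD-MAR-2 and from SUP-T1 for 13 genes each (all genes: 12.8% and 9.69%), and from HH for 4 (all genes: 7.3%), which were NOLC1, POLR1B, TSR1 and PUS7. POLR1B, in each of these counts, rests in part on the untreated JURKAT array that stood apart at 6.45. The 3 lines in which many genes fell differed among themselves for few. HD-MAR-2 and SUP-T1 differed for HEATR1 alone (all genes: 11.4%), HD-MAR-2 and HH for NOB1, RRS1 and LYAR (all genes: 15.8%), and SUP-T1 and HH for GAR1, POLR1A and RRS1 (all genes: 16.5%). KARPAS-299 and JURKAT, in each of which at most 1 gene passed, differed for RRS1 alone (all genes: 3.25%). Since these contrasts share the untreated and treated arrays of each line, their counts are not independent of one another.

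Before treatment the lines already differed in these genes. Untreated levels differed between lines for 36 of 37 genes (all genes: 95.5%), with NOP58 as the exception (adjusted p = 0.103). The mean was highest in JURKAT for 12 genes, in SUP-T1 for 11, in HD-MAR-2 for 6, in KARPAS-299 for 5 and in HH for 3. It was lowest in HH for 12, in HD-MAR-2 for 10, in KARPAS-299 for 7, in JURKAT for 5 and in SUP-T1 for 3. JURKAT, most often the highest, had no gene that fell after CHOEP. Of the lines in which many genes fell, SUP-T1 was next most often highest, and HH and HD-MAR-2 were most often lowest. A link between untreated level and response was not tested.

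A wider list of 113 ribosome biogenesis genes outside the 40, also chosen with earlier results of these data known, was counted in the same way. Of these genes 110 were tested. In HD-MAR-2 27 of them fell and 5 rose (all genes: 15.8% and 14.9%). In SUP-T1 45 fell and 4 rose (all genes: 13.9% and 12.3%), and in HH 26 fell and none rose (all genes: 9.64% and 9.89%). In KARPAS-299 none fell and 6 rose (all genes: 4.02% and 2.8%), in JURKAT none passed, and on average over lines 42 fell and 7 rose (all genes: 20.1% and 17.8%). The difference between the wider list and the 37 genes was not tested. The median log2 differences of the wider list were -0.24 in SUP-T1, -0.21 in HH and -0.11 in HD-MAR-2, each closer to zero than the median of the 37 there, and 0.10 in KARPAS-299 and -0.03 in JURKAT. By function, on average over lines, 3 of 9 further snoRNP genes fell and 1 rose, 5 of 11 Pol I genes fell and 3 rose, 15 of 44 small subunit genes fell, and 19 of 46 large subunit genes fell and 3 rose.

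Named from the wider list were its highest and lowest average calls. TAF1A, a subunit of the SL1 promoter complex, fell in HD-MAR-2 (-1.03, adjusted p = 8.29e-05), SUP-T1 (-0.58, adjusted p = 0.0193) and HH (-0.53, adjusted p = 0.0382), with the HH call lost without any 1 of the 6 HH arrays (adjusted p up to 0.113) and the SUP-T1 call lost in 3 fits (up to 0.139). TAF1C, another SL1 subunit, rose in HD-MAR-2 (0.45, adjusted p = 0.00439). Its rise in SUP-T1 (0.31, adjusted p = 0.048) was lost in 20 of 30 fits that left out 1 array (adjusted p up to 0.167), and under median scaling the SUP-T1 difference turned to -0.030. With the mean of its probes that rise was 0.12 (adjusted p = 0.447). POLR1G, a Pol I subunit, fell in SUP-T1 (-0.79, adjusted p = 0.00486) and HH (-0.69, adjusted p = 0.0179), where the HH call was lost in 3 fits that left out 1 array (adjusted p up to 0.107). In HD-MAR-2 POLR1G (-0.46, adjusted p = 0.0892) passed in 2 such fits. UBTF, which shapes active ribosomal DNA, was at -0.27 (adjusted p = 0.138) in HD-MAR-2 and 0.13 (adjusted p = 0.54) in SUP-T1. In HD-MAR-2 UBTF fell with the mean of its probes (-0.43, adjusted p = 0.00323) and under median scaling (-0.54, adjusted p = 0.0139). RRN3, the growth-regulated factor that makes Pol I able to initiate, fell in HH alone (-0.27, adjusted p = 0.0445), a call lost in 12 of the 30 fits (adjusted p up to 0.165).

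MAK16, a large subunit factor, fell in SUP-T1 (-0.80, adjusted p = 1.76e-05), HH (-0.52, adjusted p = 0.00244) and HD-MAR-2 (-0.40, adjusted p = 0.0128), the last call being lost in 1 fit that left out 1 array (-0.31, adjusted p = 0.0854). The helicase DDX51 rose in HD-MAR-2 (0.55, adjusted p = 0.0144), which was lost in 4 fits (adjusted p up to 0.0723) and when all its probes were averaged (0.05). DDX27, another helicase, rose only on average over lines (0.24, adjusted p = 0.0402), and this was lost in 17 of 30 fits (adjusted p up to 0.0697). Under median scaling no rise of TAF1C, DDX51 or DDX27 passed, nor did the HH falls of TAF1A, MAK16, POLR1G and RRN3.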

How the data were processed

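Total RNA of the 30 cultures was labelled with biotin and hybridised to Illumina HumanHT-12 v4 BeadChips. The deposited table holds, per probe and array, a signal intensity that the authors exported with BeadStudio without normalisation and a detection p-value. A deposited second table holds the authors' log2 values after normalisation in the lumi package, whose column medians lie between 6.71 and 6.74, and was used as an alternative.

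Of 48107 probes, 784 had no values and 47323 were read. Platform annotation gave 1 symbol for 30113 probes, several for 8 and none for 17202, and symbols were updated through Entrez identifiers for 30074. Intensities were background corrected and quantile normalised with neqc (limma 3.58.1, R 4.3.3, offset 16). Probes with a detection p below 0.01 on 3 or more arrays remained (22652, of which 17125 had 1 symbol), and the remaining probe with the highest mean stood for each of 12482 genes, so that probe levels are not compared between genes. Arrays detected 16003 to 18239 probes, and their median intensities were 81.1 to 122.6. All 30 arrays correlated best with an array of the same line.

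One limma model with 10 groups (20 residual degrees of freedom) gave the difference in each line, their mean, an F test of equal effects and all pairs of lines. Benjamini-Hochberg adjustment ran over all 22652 remaining probes, with a threshold of 0.05. P-values rest on the spread between the 3 cultures within each group, pooled for each probe over all 10 groups. A probe therefore has the same standard error in every line. An outlying array can thus change the p-value of another line while the log2 difference of that line stays the same. The labels call the cultures of a group biological replicates. The steps were tested on simulated data. The 40 genes and the wider lists were chosen with earlier results of these data known. Values per array are given for the 2 genes of each function with the largest average change, the 2 lowest and 2 highest calls of each line, genes called in both directions, NOP53, and genes called in no line. From the wider list the 3 highest and 3 lowest average calls, UBTF, RRN3 and MYC are named. Alternatives changed the normalisation, the detection filter, the rule for several probes, the variance model, the replicate block, the samples fitted and the fold threshold, and left out each array in turn.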

Additional observations from a re-analysis of the deposited data

Results flagged for a closer look

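Effects of CHOEP that differed between the 5 lines by the F test of equal effects are listed here with their adjusted p. The test used limma, with Benjamini-Hochberg adjustment over all remaining probes. Only genes chosen for values per array, those named from the wider list and MYC are covered. Among the tested genes of the 40, 23 passed, including GAR1 (adjusted p = 0.000277), RRP12 (0.000241) and NCL (9.41e-05), which are not listed. Among snoRNP and Pol I genes those listed were NOLC1 (adjusted p = 1.74e-05), DKC1 (0.000266), POLR1E (0.0339) and POLR1B (0.0334). Among processing genes they were BYSL (9.31e-05), UTP15 (0.00575), MRTO4 (0.00163), NOP53 (0.0412) and RRS1 (8.31e-07), and among other nucleolar genes LYAR (1.19e-05) and PUS7 (0.00298). Outside the 40 genes TAF1A (0.0164), MAK16 (0.0022), POLR1G (0.0146) and MYC (0.0314) differed between lines as well. Of all genes tested, 35.1% passed this test. The test says that the 5 effects were unequal and not which lines differed. For RRS1 the log2 differences were -0.54 in SUP-T1, 0.45 in KARPAS-299 and 0.33 in HH, and for NOP53 all 5 differences were above zero, between 0.03 in JURKAT and 0.51 in SUP-T1. The POLR1B effect in JURKAT includes 1 untreated array that stood apart at 6.45, against 7.65 and 7.82.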

How the results depend on the processing

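Leaving out each array in turn, genes that fell numbered 16 to 22 in HD-MAR-2 (16 without its CHOEP replicate 1), 18 to 22 in SUP-T1, 15 to 19 in HH, 0 in KARPAS-299 and JURKAT, and 22 to 26 on average. Genes that rose numbered 1 in SUP-T1 and KARPAS-299, 1 to 2 in HD-MAR-2, 0 in JURKAT, 2 in HH and 2 on average, and 20 to 25 genes differed between lines. Scaling to a common median gave 29 genes that fell in SUP-T1 and 5 in HH, and 0 that rose in SUP-T1, KARPAS-299, HH, HD-MAR-2 and on average. The shares of all genes that passed under it were not counted. This scaling moved the median log2 difference of all genes to -0.20 in HD-MAR-2, -0.18 in SUP-T1, -0.06 in KARPAS-299, -0.09 in JURKAT, 0.00 in HH and -0.11 on average, beside -0.62, -0.68, 0.01, -0.15, -0.39 and -0.35 for the 37 genes. It turned TAF1C in SUP-T1 to -0.030 (adjusted p = 0.932), and the cause was not tested. Fitting each line alone left 0 genes that rose in SUP-T1 and KARPAS-299 and 1 in HD-MAR-2. Asking also for a fold change of at least 2 left 0 genes that fell in SUP-T1, 0 in HH and 1 in HD-MAR-2, and 0 that rose in SUP-T1, KARPAS-299, HH and HD-MAR-2. Same-numbered replicates were not treated as paired: 3 of 15 correlations of their deviations were over 0.1, and 6 of 15 CHOEP arrays were closest to their own number. The highest correlation was 0.30, for SUP-T1 replicate 1, and these values cannot exclude pairing. A replicate block left 1 gene that rose in HD-MAR-2 and ended 8 calls among 168 results of named genes. Median scaling ended 23 of these calls, added 11 and reversed 1, and fitting each line alone ended 10 and added 1. The authors' normalised values ended 2 of these calls, no detection filter 5, and the mean of all probes of a gene ended 5 and added 7. Quantile normalisation without background correction added 1. Normalising within each chip, asking for detection on all arrays of a group and a trended, robust variance changed none. Detection limits POLR1A and UTP20, whose values lie near background in several groups. The 3 cultures per group leave a median 95% interval of ± 0.259 around a log2 difference.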
